A study of Mus musculus with 12 samples.

Results

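Oligodendrocyte and myelin genes are represented here by 9 genes chosen by name: Opalin, Aspa, Sox10, Mbp, Mog, Mag, Mobp, Cnp and Ugt8a. Each was measured by 1 probe set with a single gene symbol, so that 9 of the 19938 genes with such a probe set are described, and all 9 were among the 14953 genes bright enough to be tested. The question was whether all of these genes were lower after treatment or only Opalin, Aspa and Sox10. The samples were hypothalami of male C57BL/6J mice made obese by 20 weeks on a 45% high-fat food begun at the age of 3 weeks; they were 23 weeks old. All mice first had intraperitoneal DMSO, a solvent, for 4 days. For 4 more days the DMSO group went on with DMSO, the celastrol group had celastrol at 100 µg/kg and the withaferin A group had withaferin A at 2 mg/kg, each once a day. Both compounds are plant products known to reduce food intake in obese mice. Each group had 4 biological replicates with 1 array each, 12 arrays in all.

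Oligodendrocytes wrap axons of the central nervous system in myelin, a stack of membrane rich in cholesterol and galactolipids and held together by a small number of abundant proteins. The transcription factor Sox10 switches on myelin genes in these cells, together with Olig and Nkx factors and the regulator Myrf. In the hypothalamus myelinated fibres run mainly in tracts such as the fornix and the optic tract, so the amount of myelin RNA in a sample also depends on which tracts the dissection takes in. In bulk tissue, fewer oligodendrocytes and less RNA per oligodendrocyte cannot be told apart.

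Values are log2 signals, so that a difference of 1 is a 2-fold difference. Array medians ran from 6.89 to 6.98, and the 9 genes had mean signals from 8.06 (Opalin) to 11.75 (Mbp), above the limit of 5.81 below which genes were left out as dim. The hypothalamic genes Hcrt (11.92 to 12.51) and Pmch (11.65 to 12.32) were high on every array. Markers of neighbouring tissue varied between arrays. The mean of 8 pituitary markers, relative to the DMSO mean, ran from −0.15 to 0.08 on DMSO arrays, from 0.28 to 1.66 on celastrol arrays and from 0.07 to 0.34 on withaferin A arrays. The highest value was that of celastrol replicate 2, with Gh at 10.96 and Prl at 9.80. The mean of 10 thalamus markers ran from −0.42 to 0.59, from −0.16 to 0.79 and from −0.24 to 0.65 in the same order of groups.

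After celastrol, 2 of the 9 genes fell and none rose in limma's test with adjustment over all 14953 genes. Opalin, a sialylglycoprotein of the oligodendrocyte membrane, fell 2.00-fold, and Sox10 fell 1.31-fold. Of all genes tested, 0.314% fell and 0.769% changed in either direction. Aspa, whose enzyme releases acetate from N-acetylaspartate, had the next largest difference of the 9, at −0.59, and did not pass. Ugt8a, whose enzyme makes the galactolipid of myelin, had −0.47 and did not pass either. Mobp, a small basic protein of compact myelin, was the only one of the 9 with a positive difference, 0.31, and did not pass. The 9 genes ran from −1.003 to 0.31, with a median of −0.21, against a median of −0.02 over all genes tested.

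**Figure D1:**
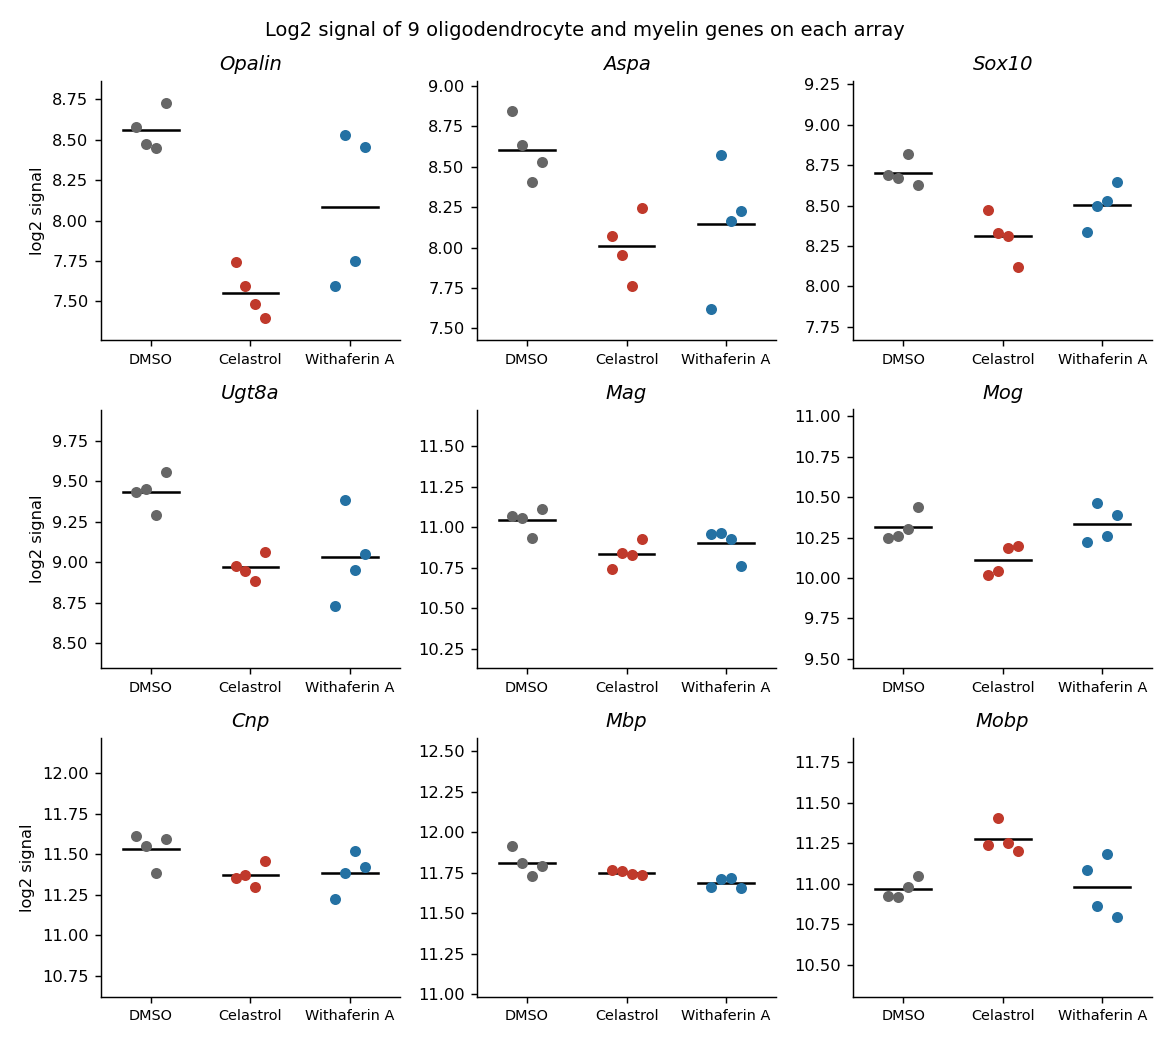
Log2 signal of each of the 9 genes on the 4 DMSO, 4 celastrol and 4 withaferin A arrays. Points are single arrays, bars are group means, and all panels span the same number of log2 units. Celastrol arrays lie below all DMSO arrays for Opalin, Aspa, Sox10, Ugt8a, Mag and Mog and above them for Mobp. The withaferin A arrays of Opalin are spread out, from 7.60 to 8.53, and overlap both other groups.

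Opalin lay at 8.58, 8.47, 8.45 and 8.73 on the DMSO arrays and at 7.74, 7.59, 7.48 and 7.40 on the celastrol arrays. The groups did not overlap, and the highest celastrol array was 0.71 below the lowest DMSO array. The difference was −1.003 ± 0.18 (SE, n = 4 per group), with a 95% interval from −1.39 to −0.62 and an adjusted p of 0.0229 in limma. Among the 14953 genes tested it was the lowest difference of all, rank 1 from the bottom. The difference stayed between −1.14 and −0.95 in the 24 alternative analyses, but the call was lost when 1 of 6 arrays was left out: DMSO replicate 1 (adjusted p = 0.0757), 2 (0.0691) or 4 (0.0805), or replicate 2 (0.0675), 3 (0.0811) or 4 (0.057) of the celastrol group. With pituitary and thalamus marker means as covariates the difference was −1.14, with an adjusted p of 0.178, and no gene of the 14953 passed. The pituitary mean was higher on every celastrol array than on every DMSO array, so this fit could not fully separate marker from treatment.

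Sox10, the transcription factor of the set, lay at 8.69, 8.67, 8.82 and 8.63 with DMSO and at 8.47, 8.33, 8.31 and 8.12 with celastrol. Again all celastrol arrays lay below all DMSO arrays. The difference was −0.39 ± 0.08, with a 95% interval from −0.57 to −0.22 and an adjusted p of 0.0433 in limma. This call was close to the threshold and was lost on leaving out DMSO replicate 1 (0.119), 2 (0.124), 3 (0.111) or 4 (0.0891), replicate 2 (0.112), 3 (0.121) or 4 (0.0929) of celastrol, or replicate 2 (0.0558) or 3 (0.0591) of withaferin A. It was also lost with no filter on dim genes (0.0712), with every probe set tested (0.0777) and with the marker means as covariates (0.221). The call was lost with the replicate number as a block as well, and so in 13 of the 24 alternatives. The difference stayed between −0.46 and −0.33.

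The metabolic genes Aspa and Ugt8a did not pass, although their groups did not overlap. Aspa lay at 8.84, 8.64, 8.40 and 8.53 with DMSO and at 8.07, 7.96, 7.76 and 8.24 with celastrol, a difference of −0.59 ± 0.17 (95% interval −0.95 to −0.24, adjusted p = 0.146 in limma). Ugt8a lay at 9.44, 9.45, 9.29 and 9.56 with DMSO. It lay at 8.97, 8.95, 8.89 and 9.07 with celastrol, a difference of −0.47 ± 0.11 (−0.70 to −0.23, adjusted p = 0.078). Each celastrol array was thus below each DMSO array for both genes. Both differences were larger than that of Sox10, and so were their SEs. Single arrays moved both calls: without withaferin A replicate 1 the adjusted p was 0.0345 for Aspa and 0.0249 for Ugt8a, and without withaferin A replicate 2 it was 0.0206 for Ugt8a. These arrays enter the celastrol comparison only through the pooled spread. With only the 8 arrays of the 2 groups the adjusted p was 0.0317 for Aspa and 0.00885 for Ugt8a. Over all 24 alternatives, which also changed other settings, Aspa passed in 3 and Ugt8a in 7.

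The other membrane and enzyme genes of myelin, Mag, Mog and Cnp, had smaller negative differences and did not pass. Mag, a glycoprotein of the innermost myelin layer that faces the axon, ran from 10.93 to 11.11 with DMSO and from 10.74 to 10.93 with celastrol, a difference of −0.21 ± 0.06 (adjusted p = 0.192 in limma). Mog, a glycoprotein of the outer myelin surface, ran from 10.25 to 10.44 and from 10.02 to 10.20, a difference of −0.20 ± 0.07 (adjusted p = 0.28). Cnp, an enzyme of the cytoplasmic channels of myelin, ran from 11.38 to 11.61 and from 11.30 to 11.46, a difference of −0.16 ± 0.07 (adjusted p = 0.421). The arrays of Mag and Mog did not overlap between groups, with gaps of 0.003 and 0.05, and those of Cnp did. Their 95% intervals ended at −0.07, −0.05 and −0.01, and reached down to −0.34, −0.35 and −0.32.

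Of the 9 genes, only the compact myelin genes Mbp and Mobp had 95% intervals that were not wholly below 0. They were also among the brighter genes, with mean signals of 11.75 and 11.08. So were Mog (10.25), Mag (10.93) and Cnp (11.43). Opalin (8.06), Aspa (8.25), Sox10 (8.50) and Ugt8a (9.14), which had the larger negative differences, were dimmer. The part of signal level in the sizes of the differences was not tested. Mbp, the basic protein that seals the cytoplasmic faces of myelin, lay at 11.91, 11.81, 11.73 and 11.79 with DMSO and at 11.77, 11.76, 11.74 and 11.74 with celastrol. The celastrol arrays lay inside the DMSO range. The difference was −0.06 ± 0.05 (adjusted p = 0.74 in limma), and its 95% interval of −0.17 to 0.05 held no fall as large as those of Opalin or Sox10. Without DMSO replicate 1, the array with the highest Mbp, the difference was −0.027. Mobp lay at 10.93, 10.92, 10.98 and 11.05 with DMSO and at 11.24, 11.40, 11.25 and 11.20 with celastrol. Here every celastrol array was above every DMSO array. The difference was 0.31 ± 0.08 (95% interval 0.13 to 0.48, adjusted p = 0.127); it was positive in all 24 alternatives and passed in 2 of them, when the prior variance followed signal and was robust (0.0409) and with only the 8 arrays of the 2 groups (0.0402).

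**Figure D2:**
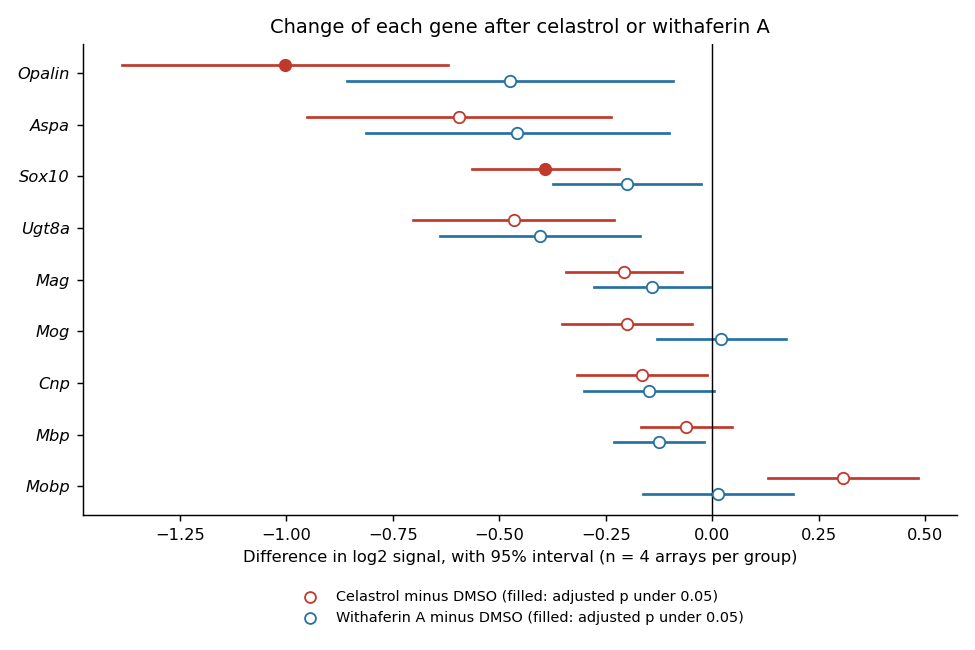
Difference in log2 signal of each gene for celastrol minus DMSO (red) and withaferin A minus DMSO (blue), with its 95% interval from limma and n = 4 arrays per group. Filled points had an adjusted p under 0.05, which holds only for Opalin (−1.003) and Sox10 (−0.39) after celastrol, and Mobp lies to the right of 0 after celastrol at 0.31.

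The celastrol arrays thus neither showed a fall of all 9 genes nor limited the lower values to Opalin, Aspa and Sox10. Of the 9 differences 8 were negative, against 57.4% over all genes tested, and 8 had an unadjusted p under 0.05 (all but Mbp), against 10.4%. The 95% interval, which is not adjusted for the number of genes, lay wholly below 0 for 7 of the 9 genes, against 6.25% of all genes tested. It lay wholly above 0 for Mobp (4.19% of all genes) and included 0 for Mbp. In 6 of the 9 genes (Opalin, Aspa, Sox10, Ugt8a, Mag and Mog) all celastrol arrays lay below all DMSO arrays, which held for 4.5% of all genes. In 1 gene, Mobp, they all lay above, which held for 2.71%. The 9 genes were chosen with earlier results of these data known, so these shares and those after withaferin A are a description. Opalin, Aspa and Sox10 were named in the question itself, so their part in these shares was not an independent result. On each celastrol array 8 of the 9 genes were below their DMSO mean, as they were on each withaferin A array, and on the DMSO arrays 3, 4, 7 and 3 were. The sizes differed: relative to the DMSO means, Opalin lay 0.58, 0.78, 0.90 and 1.07 below the median of Ugt8a, Mag, Mog, Cnp, Mbp and Mobp on the 4 celastrol arrays, and between 0.09 below and 0.10 above it on the DMSO arrays. This contrast was drawn up with the size of the Opalin difference known and was not tested.

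After withaferin A none of the 9 genes passed in limma, and the same held for all 14953 genes (0% called). An unadjusted p under 0.05 was found for 2352 genes, 15.7% of those tested, and 8 genes had an adjusted p under 0.10. The differences of the 9 genes ran from −0.47 to 0.02, with 7 of 9 negative (51.5% over all genes) and a median of −0.15, against a median of −0.004 over all genes. Opalin (−0.47 ± 0.18), Aspa (−0.46 ± 0.17) and Ugt8a (−0.40 ± 0.11) had the lowest values, with adjusted p of 0.249, 0.241 and 0.169. The 95% interval lay wholly below 0 for 6 of the 9 genes, namely Opalin, Aspa, Sox10, Mbp, Mag and Ugt8a, against 9.11% of all genes. Both treatments were set against the same 4 DMSO arrays, so their values for a gene are not independent.

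Among the 9 genes Opalin had the largest SD over the withaferin A arrays, while Aspa had a slightly larger range (0.96 against 0.93). It lay at 7.60, 8.53, 7.75 and 8.46 on withaferin A replicates 1 to 4, so that replicate 1 lay within the celastrol range and replicate 3 just above its highest array (7.74), and replicates 2 and 4 lay within the DMSO range. The SD of Opalin was 0.48 with withaferin A, against 0.13 with DMSO and 0.15 with celastrol. Aspa lay at 7.62, 8.57, 8.16 and 8.23, with its lowest value on the same array as Opalin. Ugt8a lay at 8.73, 9.39, 8.95 and 9.05, again lowest on replicate 1 and highest on replicate 2. The groups overlapped for all 3 genes, and the SE of the fit, which pools all 3 groups, is smaller than the spread of the withaferin A arrays alone would give. Without withaferin A replicate 1 the difference of Opalin was −0.31 and that of Aspa −0.28, and without replicate 2 they were −0.62 and −0.60.

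The other genes varied less after withaferin A. Sox10 lay at 8.34, 8.50, 8.53 and 8.65, a difference of −0.20 ± 0.08 (adjusted p = 0.266 in limma), with 3 of the 4 arrays below all DMSO arrays. Mbp lay at 11.66, 11.71, 11.72 and 11.65, all below the lowest DMSO array, with a gap of 0.015. Its difference was −0.13 ± 0.05 (adjusted p = 0.256), and it was the only one of the 9 genes whose withaferin A and DMSO arrays did not overlap, which held downwards for 4.69% and upwards for 2.91% of all genes. Mag had −0.14 (adjusted p = 0.3) and Cnp −0.15 (adjusted p = 0.329). Without replicate 4 of withaferin A the value of Mag was −0.094, and without replicate 1 that of Cnp was −0.095. Repeating quantile normalization gave −0.066 for Mag, −0.082 for Cnp and −0.068 for Mbp. Mog and Mobp had 0.02 and 0.01, with 95% intervals of −0.13 to 0.17 and −0.16 to 0.19; with each array centred on its median both were slightly negative, at −0.02 and −0.03.

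Values of glucocorticoid-responsive genes differed between the same arrays. The list held 14 tested genes, such as Fkbp5, Zbtb16 and Sgk1. Of these 8 rose and 0 fell after celastrol, against 0.455% and 0.314% of all genes. After withaferin A 0 passed, as held for all 14953 genes. The list mean relative to the DMSO arrays was 0.65, −0.08, 0.48 and 0.04 on withaferin A replicates 1 to 4. Opalin relative to its DMSO mean was −0.96, −0.03, −0.81 and −0.10 on those arrays. Replicates 1 and 3 thus had the higher list means and the lower Opalin values. Aspa and Ugt8a were also lower on these replicates, but not every gene was. Sox10 relative to its DMSO mean was −0.36, −0.20, −0.17 and −0.06 on replicates 1 to 4, lower on replicate 2 than on replicate 3. Mbp had its highest withaferin A value on replicate 3. On the celastrol arrays the list mean ran from 0.66 to 0.77, and on the DMSO arrays from −0.11 to 0.13. Mobp was 0.11, −0.11, 0.22 and −0.17 relative to DMSO on the withaferin A arrays, and so was above 0 on replicates 1 and 3 only. The part of these genes in the Opalin result was not tested, and the list was chosen with earlier results of these data known.

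**Figure D3:**
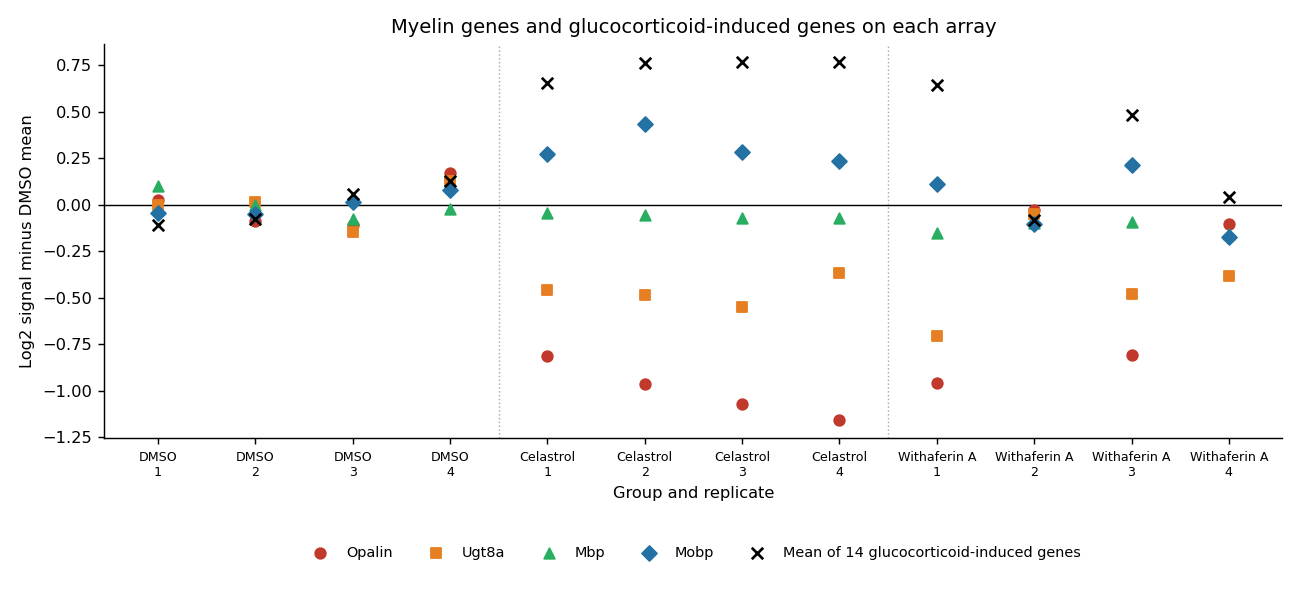
Log2 signal relative to the DMSO mean on each of the 12 arrays for Opalin, Ugt8a, Mbp and Mobp and for the mean of 14 glucocorticoid-induced genes (crosses). Celastrol arrays have list means from 0.66 to 0.77 and Opalin values from −1.16 to −0.81, and withaferin A replicates 1 and 3 (list means 0.65 and 0.48) show the lower Opalin values of their group.

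Celastrol and withaferin A were also compared directly; their doses differ by weight and were set by the study. None of the 9 genes passed, while 7 of the 14953 genes (0.0468%) did, 6 of them lower with withaferin A (0.0401%) and 1 higher (0.00669%). Opalin was higher with withaferin A than with celastrol by 0.53 ± 0.18 (95% interval 0.15 to 0.91, adjusted p = 0.204 in limma), Mog by 0.22 ± 0.07 (adjusted p = 0.189) and Sox10 by 0.19 ± 0.08 (adjusted p = 0.268). Mobp was lower by 0.29 ± 0.08 (adjusted p = 0.159), and the only one of the 9 with an interval wholly below 0 (7.46% of all genes). The arrays of the treatments did not overlap for Mobp and Mbp, lower with withaferin A (5.35% of all genes), and for Mog, higher (3.92%). For Aspa, Ugt8a, Mag, Cnp and Mbp the intervals included 0; that of Ugt8a was −0.17 to 0.30 and that of Aspa −0.22 to 0.49, so they held differences of either sign.

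Other genes of the lineage were read from 5 lists chosen by function, with 79 of 83 genes tested. After celastrol 3 of the 79 fell and 0 rose, against 0.314% and 0.455% of all genes, and the median difference was −0.07. The difference was negative for 53 of the 79, against 57.4% of all genes. The 95% interval, not adjusted for the number of genes, lay wholly below 0 for 26 of the 79, against 6.25%. It lay wholly above 0 for 4, against 4.19%. These lists too were chosen with earlier results of these data known. Nkx6-2 fell by 0.49 ± 0.10 (adjusted p = 0.0381 in limma) and Nkx2-2 by 0.32 ± 0.07 (adjusted p = 0.0476), both homeodomain factors of the lineage. Gpr37, a receptor of mature oligodendrocytes, fell by 0.44 ± 0.09 (adjusted p = 0.0381). Nkx6-2 ran from 8.83 to 9.12 with DMSO and from 8.37 to 8.63 with celastrol, Nkx2-2 from 7.74 to 7.78 and from 7.29 to 7.57, and Gpr37 from 10.06 to 10.23 and from 9.66 to 9.79. None of these ranges overlapped. All 3 calls were lost on leaving out any one DMSO array or replicate 2, 3 or 4 of celastrol, with adjusted p up to 0.133 for Nkx6-2, 0.148 for Nkx2-2 and 0.119 for Gpr37. Gpr37 was also lost without replicate 1 of celastrol (0.0781), and Nkx2-2 without replicate 2 (0.0505), 3 (0.0681) or 4 (0.0601) of withaferin A, while 7 of the 79 genes passed without replicate 1 of withaferin A. None of the 3 passed with no filter on dim genes, with every probe set tested or with the marker means as covariates. With these covariates the adjusted p was 0.247 for Nkx6-2, 0.397 for Nkx2-2 and 0.225 for Gpr37. Nkx2-2 did not pass with only the 8 arrays of the 2 groups (0.0524). Over all 24 alternatives the call was lost in 11 for Nkx6-2, in 15 for Nkx2-2 and in 12 for Gpr37.

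By role, the 13 transcription factors held the Nkx calls, while Olig1 (−0.07), Olig2 (−0.07), Sox8 (0.0015) and Myrf (0.05), the factor that drives late myelin gene expression, had values near 0 and Zeb2 had −0.25 (adjusted p = 0.356 in limma). Among 15 other genes of the myelin membrane and its junctions 0 passed, with a median of −0.17. Pllp, a plasma membrane proteolipid, had −0.54 ± 0.13 (adjusted p = 0.0805 in limma), Tmem88b −0.31 (0.129) and Ninj2 −0.25 (0.189), whereas Mal and Cldn11, proteins of compact myelin and of its tight junctions, had 0.11 and 0.10. Among 11 lipid enzymes 0 passed, with a median of −0.10; Sqle and Hmgcs1 of cholesterol synthesis had −0.20 and −0.14, Elovl7 −0.26 and Fa2h, which makes hydroxylated myelin lipids, −0.16. Of 24 other genes of mature oligodendrocytes, Gpr37 fell and 23 did not pass, with a median of −0.10. Car2, a carbonic anhydrase, had −0.57 ± 0.14 (adjusted p = 0.084) and Adamts4 −0.34 ± 0.08 (0.0871). The 16 genes of precursors and newly formed oligodendrocytes had a median of −0.02 and 0 calls, with Pdgfra, the receptor that marks precursors, at 0.03, Cspg5 at −0.26 (0.0835) and Enpp6 at −0.31 (0.29). After withaferin A 0 of the 79 genes passed, with a median of −0.06.

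**Figure D4:**
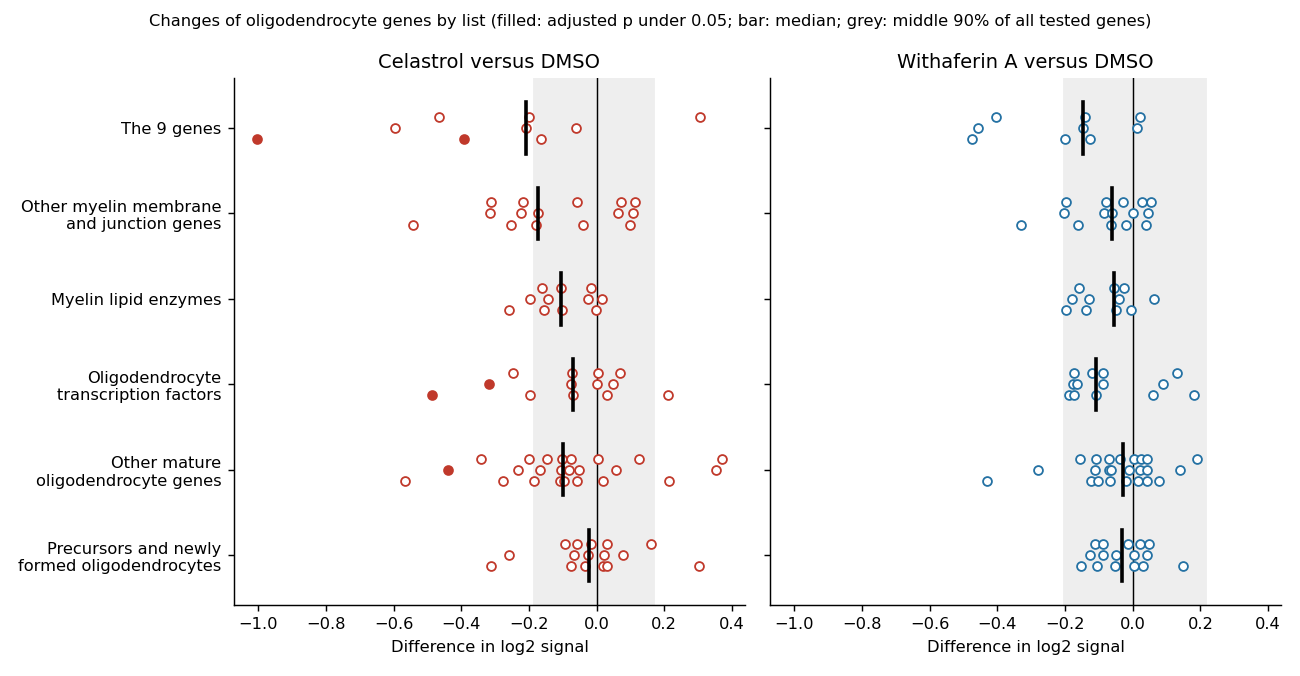
Difference in log2 signal from DMSO for the 9 genes and for 5 other lists of oligodendrocyte genes, after celastrol (left) and withaferin A (right). Each point is a gene, filled where the adjusted p was under 0.05, bars are list medians and the grey band holds the middle 90% of the 14953 genes, −0.18 to 0.17 after celastrol and −0.20 to 0.22 after withaferin A. The medians of the other lists after celastrol lie between −0.17 and −0.02.

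Markers of other cells and tissues were read beside these genes. After celastrol 0 of 12 neuronal, 0 of 10 astrocyte and 0 of 8 microglial markers passed, with medians of −0.01, 0.005 and −0.06. The smallest p of each list belonged to Gad2 (−0.20, adjusted p = 0.114 in limma), Gjb6 (0.43, 0.0698) and C1qb (0.33, 0.150). Of 9 endothelial markers 1 fell, against 0.314% of all genes. This was Tek at −0.55 ± 0.11 (adjusted p = 0.045 in limma), and Kdr had −0.63 (0.0787). The list median was −0.12, with 6 of the 9 differences negative (57.4% over all genes) and 3 positive, the highest at 0.04. The mean of the endothelial list relative to DMSO ran from −0.28 to −0.15 on celastrol arrays and from −0.04 to 0.04 on DMSO arrays. On withaferin A arrays it ran from −0.29 to −0.03. The list mean thus moved in the same direction as Opalin, while not every marker of the list did. Of 13 hypothalamic markers 1 fell, Oxt at −0.40 ± 0.07 (0.0179), against 0.314% of all genes. The list median was −0.16, near that of the 15 other myelin membrane and junction genes (−0.17), with 12 of 13 differences negative (57.4% over all genes). The list mean ran from −0.29 to −0.06 on celastrol arrays against −0.07 to 0.09 with DMSO. Of 6 tested Schwann cell markers, the cells that myelinate peripheral nerves, 0 passed, with list means from −0.03 to 0.04 with celastrol and −0.04 to 0.07 with DMSO; Cdh19 had 0.43 (0.216). None of 7 pituitary and 9 thalamus markers passed after celastrol, with medians of 0.33 and 0.23, although the pituitary means of the celastrol arrays all lay above those of the DMSO arrays. The part of these markers in the results was not tested beyond the fits with pituitary and thalamus marker means as covariates. Without celastrol replicate 2, the array with the highest pituitary mean, Opalin had −1.02 and Sox10 −0.40.

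Promoters of the genes were compared because Opalin and Mobp lay at opposite ends of the set and Sox10, a factor that binds SOX motifs, fell. Mbp, whose difference after celastrol was −0.06, was left out of this comparison by choice, and Sox10 had no usable promoter sequence. RefSeq windows of 300 bases (250 before the start and 50 after it, GRCm38.p6) were described for the other 7 of the 9 genes. Those of Opalin (chr19:41077064-41077363, minus strand), Aspa (chr11:73324588-73324887, minus strand) and Mobp (chr9:120149492-120149791, plus strand) are shown for their differences of −1.003, −0.59 and 0.31. Capitals mark the SOX core ACAAAG or its reverse complement CTTTGT.
Opalin: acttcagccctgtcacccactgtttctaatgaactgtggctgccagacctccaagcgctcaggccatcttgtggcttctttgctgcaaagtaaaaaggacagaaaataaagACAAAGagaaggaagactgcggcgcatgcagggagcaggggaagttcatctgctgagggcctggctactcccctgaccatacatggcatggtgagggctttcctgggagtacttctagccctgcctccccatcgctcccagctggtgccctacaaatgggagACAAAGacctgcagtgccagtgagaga
Aspa: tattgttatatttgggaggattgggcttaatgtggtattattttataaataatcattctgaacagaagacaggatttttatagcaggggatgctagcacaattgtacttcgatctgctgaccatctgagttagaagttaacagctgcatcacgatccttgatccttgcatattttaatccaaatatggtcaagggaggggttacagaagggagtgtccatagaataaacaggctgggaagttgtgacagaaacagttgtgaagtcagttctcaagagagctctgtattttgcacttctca
Mobp: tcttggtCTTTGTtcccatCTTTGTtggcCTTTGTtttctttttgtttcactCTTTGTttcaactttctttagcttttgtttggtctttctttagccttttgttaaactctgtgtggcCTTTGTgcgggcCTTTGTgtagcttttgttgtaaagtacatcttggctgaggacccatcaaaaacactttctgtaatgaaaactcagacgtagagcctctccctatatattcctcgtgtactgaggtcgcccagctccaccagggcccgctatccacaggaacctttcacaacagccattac
The Opalin window held 2 matches to the SOX core and the Mobp window 6, all on the reverse strand between positions −243 and −120, while the Aspa window held 0.

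Over 32851 RefSeq promoter windows of the same length, 18.7% held at least 1 SOX core match on either strand and 0.198% held 3 or more. The Mobp window was the only one with 6, the highest number found. Mag and Cnp had 1 match each (Mag in 2 of its 3 windows), and Mog and Ugt8a had 0. The Myrf motif CTGGCAC, searched on both strands and held by 5.01% of windows, was matched once each in Opalin, in Cnp and in 2 overlapping windows of Mag. The palindrome CAGCTG, an E-box that Olig factors can bind, was held by 16.3% of windows and matched once each in Opalin and Aspa. The full glucocorticoid response element (AGAACA and TGTTCT with 3 letters of any kind between) was matched in 0 of the windows of the 7 genes and in 0.00913% of all windows. None of the 4 motifs contains another. The motifs were chosen after the sequences had been seen, and a match describes the letters in a window and not binding there.

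The genes whose values most resembled those of Opalin and of Mbp were found by Pearson correlation over the 12 arrays among 14944 other genes, as a description without a test. Differences between the treatments are part of these values. For Opalin they were Slc38a3, a glutamine transporter (r = 0.97), Sytl2 (0.94), Tmem88b (0.94), Plpp3 (0.94) and Tek (0.94). With group means removed these values were 0.93, 0.83, 0.91, 0.79 and 0.86. Slc38a3 fell after celastrol by 0.40 (adjusted p = 0.0326 in limma), and Tmem88b and Tek are in the lists above. For Mbp they were Arxes1 (0.97), Atf2 (0.96), Manea (0.96), Usp9x (0.95) and Marcks (0.94), with no gene in common with those of Opalin.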

How the data were processed

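Hypothalamic RNA of 12 mice, 4 per group, was labelled with biotin and hybridised to one-colour Affymetrix arrays, per the labels. The deposited values are log2 signals of 35556 probe sets that the authors made with RMA, per the submitters' processing notes; its version is not given in the sources used here. Arrays carry no counts, so their number limits the precision. Of the probe sets 21789 had 1 gene symbol in the platform annotation, 1621 several and 12146 none; only the first were used, with the highest-mean probe set per gene. Genes with a mean under the 25th percentile (5.81) were left out as dim.

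Group means of all 12 arrays were fitted with limma 3.58.1 (lmFit, eBayes; R 4.3.3; 9 residual and 4.44 prior degrees of freedom), and groups were compared two-sided, with Benjamini-Hochberg adjustment over 14953 genes and a threshold of 0.05. SE and 95% intervals are those of this fit. The replicates are biological, per the labels. The fit was tested on simulated data. Alternatives covered filters, probe sets, scaling, the variance model, arrays in the fit, a replicate block, marker covariates and leaving out each array.

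The 9 genes and all lists were chosen with earlier results of these data known. Named besides them are genes past the threshold in a list, the 3 of smallest p after celastrol per list of oligodendrocyte genes (of the other lists only some of these are printed), and the 5 most like Opalin or Mbp; Hcrt, Pmch, Gh and Prl are printed as tissue markers, and Olig1, Olig2, Sox8, Myrf, Mal, Cldn11, Fa2h, Pdgfra, Apod, Anln and Gsn were added after their values were seen, as were the motifs. Promoter windows came from RefSeq. Plots were drawn with matplotlib 3.10.9.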

Additional observations from a re-analysis of the deposited data

How the results depend on the processing

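For celastrol versus DMSO, 115 genes and 2 of the 9 genes (Opalin and Sox10) passed. Without a filter on dim genes the counts were 60 and 1, with every probe set 62 and 1, and with a robust, signal-dependent prior 195 and 4. With array weights they were 219 and 4, with the 8 arrays of the 2 groups 182 and 5, and with covariates for the pituitary and thalamus markers 0 and 0. At an adjusted p threshold of 0.10, 212 genes passed, and of the 9 these were Opalin, Sox10 and Ugt8a. Leaving out single arrays gave 6 to 207 genes and 0 to 4 of the 9. For withaferin A versus DMSO 0 genes passed, against 8 with the robust prior, 21 with array weights, 8 at 0.10, 9 with the covariates and 0 to 172 without single arrays (172 without DMSO replicate 3). For withaferin A versus celastrol 7 genes passed, against 11 with no filter, 13 with a filter at the 50th percentile, 11 with every probe set, 12 with centred arrays, 29 with the robust prior, 19 with weights, 0 with 8 arrays, 77 at 0.10, 0 with the covariates and 0 to 56 without single arrays; 0 of the 9 genes passed in any alternative of these 2 comparisons. The cause of these shifts was not tested, apart from the fewer arrays or the other threshold itself.

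The sign of a difference from DMSO turned for Mog after withaferin A with centred arrays (−0.024) and without withaferin A replicate 2 (−0.023). It turned for Mobp after withaferin A with centred arrays (−0.032), with the covariates (−0.021) and without DMSO replicate 1 (−0.00088) or 2 (−0.0033) or withaferin A replicate 1 (−0.020) or 3 (−0.055). Between the compounds it turned for Cnp with centred arrays (−0.018) and without celastrol replicate 3 (−0.0083) or withaferin A replicate 3 (−0.028), and without withaferin A replicate 2 for Aspa (−0.0059) and Ugt8a (−0.057). Over the single arrays left out, these values ran from −0.023 to 0.064 for Mog and −0.055 to 0.075 for Mobp after withaferin A, and between the compounds from −0.028 to 0.070 for Cnp, −0.0059 to 0.31 for Aspa and −0.057 to 0.16 for Ugt8a. After celastrol all 9 genes kept their sign in all 24 alternatives.

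Replicate numbers did not pair the arrays: 12 correlations of same-numbered arrays ran from −0.28 to 0.12, and the best match was the own number in 2 of 24 cases. With the number as a replicate block 54 genes and 1 of the 9 (Opalin) passed after celastrol.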

Other observations

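Of the 79 genes in the 5 other oligodendrocyte lists, 53 had a negative difference after celastrol, against 57.4% of all genes tested. The other 26 had a positive difference, like Mobp. A 95% interval wholly above 0 was found for 4 of the 79, near the 4.19% of all genes tested. None of the 4 passed, and their values are given as a description. Apod, a lipid-binding lipocalin made by mature oligodendrocytes, had 0.37 ± 0.10 (adjusted p = 0.129 in limma) and Anln, which encodes the scaffold protein anillin, 0.35 ± 0.10 (0.138). Neu4, a sialidase of newly formed oligodendrocytes, had 0.30 ± 0.09 (0.177) and the actin-binding Gsn 0.12 ± 0.05 (0.387). In the direct comparison Anln was lower with withaferin A than with celastrol by 0.46 ± 0.10 (0.0882) and Apod by 0.33 ± 0.10 (0.179). Apod, Anln and Gsn were singled out after their values were seen.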
